A study of Mus musculus with 4 samples.

Results

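A group of 5 genes, chosen for large falls in embryonic mouse brains lacking Sox4 and Sox11, is described here: Cd1d1, Slco5a1, Tmem44, Arg2 and Slc27a2. They were selected on their log2 change between knockout and control on the same 4 arrays, among the largest falls, so their lower signal in the knockout is the choice itself and is described with no test. Every probe set annotated to exactly 1 of these symbols was taken, which gave 10 of the 45037 non-control probe sets, and 5 of 18193 genes with a symbol of their own. A working name for the group was strongly lost transport and metabolic genes. That name covers Slco5a1, Arg2 and Slc27a2 by their known roles, while Cd1d1 presents antigen and the role of Tmem44 is little known, so the group is called by its genes.

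The tissue was whole mouse brain at embryonic day 14.5, the strain background was mixed (129SvJ/C57Bl/6J), and total RNA of each of the 4 samples was hybridised to an Affymetrix array. The 2 control samples had the genotype Sox4 flox/flox; Sox11 flox/flox, and the 2 double-knockout samples carried Brn4::Cre with the same floxed alleles. Both groups therefore share the floxed alleles, no group carried Cre alone, and the driver is named for Brn4 (Pou3f4), so cells of the brain in which Cre was not active keep the alleles. Sox4 and Sox11 are SoxC transcription factors of young neurons. The series title speaks of spinal cord, whereas every sample is labelled whole brain. The labels call the samples biological replicates without saying whether each was 1 embryo or a pool, so a p-value here weighs a change only against the scatter of these arrays.

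The 5 proteins do different work. CD1d, encoded by Cd1d1, resembles MHC class I molecules, pairs with beta-2-microglobulin and shows lipids to natural killer T cells. Slco5a1 belongs to the organic anion transporting polypeptides, membrane carriers that move bile acids, hormones and other organic anions in the better known family members. Arg2 is the mitochondrial arginase, which splits arginine into ornithine and urea and so draws on the same arginine as nitric oxide synthases and supplies ornithine for polyamine and proline synthesis. Slc27a2 (FATP2) takes up fatty acids and joins very long chain fatty acids to coenzyme A before peroxisomal oxidation, and it is best known in liver and kidney. Tmem44 is a membrane protein with several predicted membrane spans.

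RefSeq promoter windows were at hand for 2 of the 5 genes, Tmem44 and Slc27a2, and they are shown because the groups compared differ in 2 DNA-binding factors. The 250 bases before the annotated start are printed 5′ to 3′ on the strand of the gene, from build GRCm38.p6. Tmem44 lies on the minus strand, at chr16:30550579-30550828, and Slc27a2 on the plus strand, at chr2:126552774-126553023. Capitals mark ACAAT, the core to which Sox proteins bind, and ACAAAG, a related element shared with Tcf/Lef factors, on either strand.
Tmem44: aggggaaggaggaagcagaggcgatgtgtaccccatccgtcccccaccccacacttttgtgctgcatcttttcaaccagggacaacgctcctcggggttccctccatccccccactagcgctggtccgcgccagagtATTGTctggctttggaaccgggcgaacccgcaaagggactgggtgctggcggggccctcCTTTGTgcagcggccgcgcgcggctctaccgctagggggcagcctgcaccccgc
Slc27a2: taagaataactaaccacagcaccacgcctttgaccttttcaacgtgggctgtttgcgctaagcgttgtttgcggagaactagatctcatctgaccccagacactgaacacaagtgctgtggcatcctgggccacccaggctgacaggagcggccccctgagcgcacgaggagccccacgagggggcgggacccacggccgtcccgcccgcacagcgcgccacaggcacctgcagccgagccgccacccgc
The Tmem44 window holds 1 ACAAT, which starts 113 bases before the annotated start, and 1 ACAAAG, which starts 54 bases before it, both on the opposite strand. No capitals occur in the Slc27a2 window, which says only that these letters are not in these 250 bases. ACAAT was present in 27.7% of the 32851 promoter windows of the same length, ACAAAG in 16.5% and both in 5.31%. The E-box CANNTG was found 3 times before Slc27a2 and 0 times before Tmem44, against 66.2% of all windows with at least 1. Neither window holds TATAAA, which 12.4% of all windows do. Both are rich in G and C (66% for Tmem44 and 64% for Slc27a2, against a median of 52.4%). A match is a string of letters, not a bound site. No promoter of Cd1d1, Slco5a1 or Arg2 is printed.

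Signals are MAS5 probe set intensities on a linear scale, with a trimmed mean of 1000 on each array. Median signals were 262.6 to 287.6 on the 4 arrays, and log2 signals correlated with r = 0.984 between controls, 0.987 between knockouts and 0.960 to 0.963 across the groups. The arrays' number limits the precision of every value. All 6 Sox11 probe sets fell by 2.29-fold to 9.08-fold. Of the 6 tested Sox4 probe sets, 4 fell, by 2.132-fold to 6.475-fold, and 1 rose 3.55-fold. The brightest Sox4 probe set read 36047.5 and 34818.7 in controls and 37277.4 and 38262.9 in knockouts. It was not called (limma adjusted p = 0.242), so Sox4 read at its brightest probe set did not change past the threshold. Where these probe sets lie relative to the deleted parts is not known here. All 9 neuronal markers examined were bright enough to be tested. As markers of neurons in general, they cannot tell whole brain from spinal cord. Changes are given as log2 of (signal + 16), knockout minus control, which understates the change of dim genes. Genes other than the 5 were called at an adjusted p under 0.05 (limma, Benjamini-Hochberg over 27022 probe sets), after probe sets with a mean below the 40th percentile (a signal of 154.6) had been set aside. Each gene was read at its brightest tested probe set. At that threshold 27.3% of 12489 genes changed (16.3% rose and 11.0% fell).

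Cd1d1 had the largest change of the 5 genes when each is read at its brightest probe set with all arrays. Slco5a1 exceeded it without control 2 (-2.37 against -2.28), and averaged over tested probe sets Cd1d1 (-1.92) came after Slco5a1 (-2.35), Arg2 (-2.27) and Slc27a2 (-1.96). At 1449130_at its signal was 2788 and 3333 in the controls, against 520.9 and 602.7 in the knockouts. The groups did not overlap, and the lower control was 4.63 times the higher knockout. The log2 change was -2.41 ± 0.14 (SE, n = 2 each), or 5.32-fold lower. The other probe set, 1449131_s_at, whose suffix marks probes that can detect related transcripts, read 1951 and 1691 in controls and 648.8 and 676.9 in knockouts, a log2 change of -1.43 ± 0.13. Both probe sets had both knockouts below both controls, with the smaller change at this one. Among all non-control probe sets 27.1% had that order, and the gene was chosen for its fall, so nothing is read from it.

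Slco5a1 was nearly as low. At 1440874_at the controls read 2401 and 2316 and the knockouts 408.3 and 496.3, which is 5.09-fold lower (log2 change -2.35 ± 0.14, SE, n = 2 each). The control arrays lay closer together here than at the brightest probe set of any other of the 5 genes, with a log2 difference of -0.05 between them. A second, dim probe set, 1439588_at, read 316.7 and 146.9 in controls and 19.0 and 24.0 in knockouts. It did not pass the filter on dim probe sets, and its change was the least precise of the 10 (log2 change -2.64 ± 0.46). The size depends on the constant added to the signal, with -3.28 at a constant of 1 and -1.73 at 64. It moved from -2.12 without control 1 to -3.15 without control 2.

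Tmem44 was measured by 3 probe sets. The brightest, 1455044_at, read 807.7 and 985.9 in controls and 222.9 and 169.6 in knockouts, 4.31-fold lower (log2 change -2.11 ± 0.20, SE, n = 2 each). At 1456517_at the signals were 412.9 and 484.9 against 189.0 and 129.5, the smallest change of the 10 member probe sets (-1.42 ± 0.24). The third, 1445383_at, read 388.6 and 290.9 against 53.6 and 51.7 and did not pass the filter on dim probe sets (-2.36 ± 0.33). All 3 probe sets had both knockouts below both controls. Among all non-control probe sets 27.1% had that order, and the gene was chosen for its fall, so nothing is read from it. At each of the 3, knockout 2 was the lower knockout array.

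Arg2 had 2 probe sets, and the dimmer changed more. The brighter, 1418847_at, read 808.0 and 1099.5 in controls and 222.1 and 220.1 in knockouts, 4.04-fold lower (log2 change -2.02 ± 0.19, SE, n = 2 each). The 2 knockout arrays were almost equal there, while the controls differed by a log2 value of 0.44, the widest gap between controls among the brightest probe sets of the 5 genes. At 1438841_s_at the signals were 485.4 and 620.4 against 90.1 and 73.8, or 5.79-fold lower (-2.53 ± 0.25). The dim knockout signals make this value depend on the added constant, from -2.74 at 1 to -2.07 at 64.

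Slc27a2 had a single probe set, 1416316_at. It read 493.4 and 574.8 in controls and 113.2 and 137.2 in knockouts, 3.90-fold lower (log2 change -1.96 ± 0.22, SE, n = 2 each). Both knockout signals lay below the filter value of 154.6, so the probe set was tested on the strength of its control signal. The change was -2.09 at an added constant of 1 and -1.66 at 64.

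**Figure D1:**
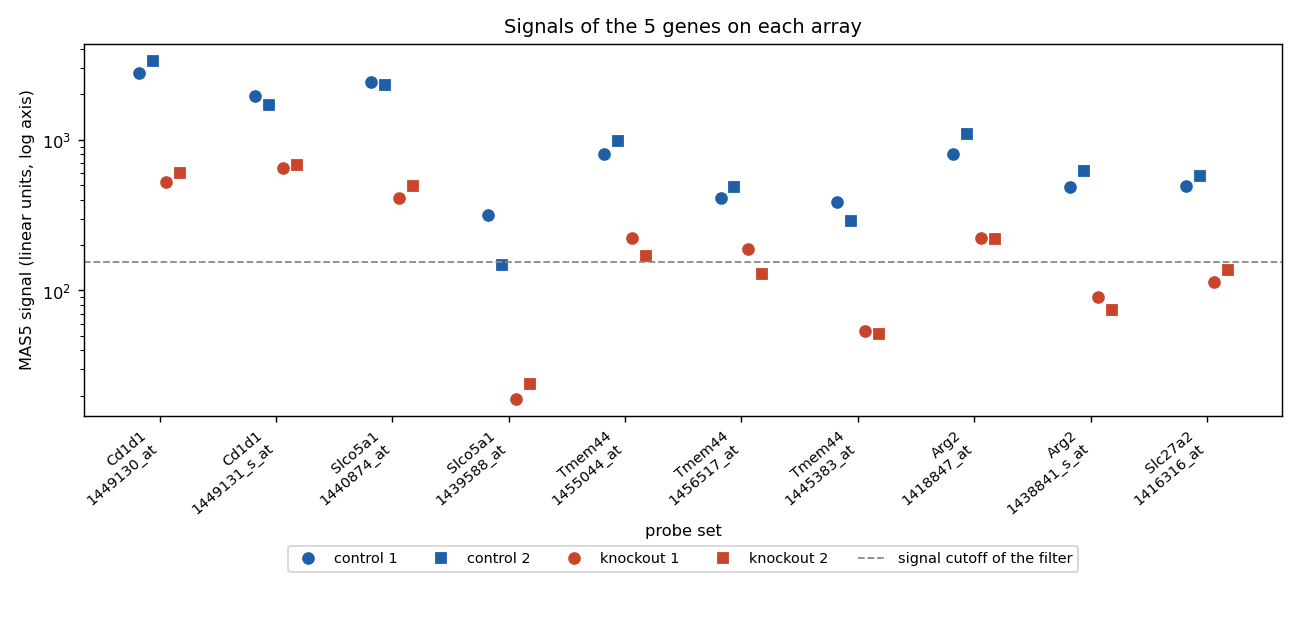
MAS5 signal (log axis) at each of the 10 probe sets of the 5 genes, with controls in blue and knockouts in red, replicate 1 as a circle and replicate 2 as a square; the dashed line is the signal of 154.6 that corresponds to the filter. Both knockout points lie below both control points at every probe set, and Slco5a1 1439588_at has the widest gap between its controls (316.7 and 146.9).

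Over the 10 probe sets, 8 passed the filter, and both knockout arrays lay below both control arrays at all 10. Among all non-control probe sets 27.1% showed that order, and by gene 27.3% passed the threshold in either direction and 11.0% fell; since the 5 were chosen for it, nothing is read from their count. The knockout signal was 2.68-fold to 6.22-fold lower. Both knockout signals lay under the filter value at 4 probe sets (Slco5a1 1439588_at, Tmem44 1445383_at, Arg2 1438841_s_at and Slc27a2), and 1 of the 2 did at Tmem44 1456517_at. In the order of change at their brightest probe sets, the genes ran Cd1d1 (-2.41), Slco5a1 (-2.35), Tmem44 (-2.11), Arg2 (-2.02) and Slc27a2 (-1.96). The 95% limits of all 5 overlapped (Cd1d1 -2.71 to -2.11, Slc27a2 -2.46 to -1.46). These limits take no account of the choice for large falls, so they describe the scatter of the arrays and are no test. With single arrays left out the brightest probe sets stayed between -2.54 and -1.80. Signals of different probe sets are not levels that can be set against each other, so the genes are compared by their changes only. In bulk RNA, fewer cells of a type and less RNA per cell cannot be told apart.

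**Figure D2:**
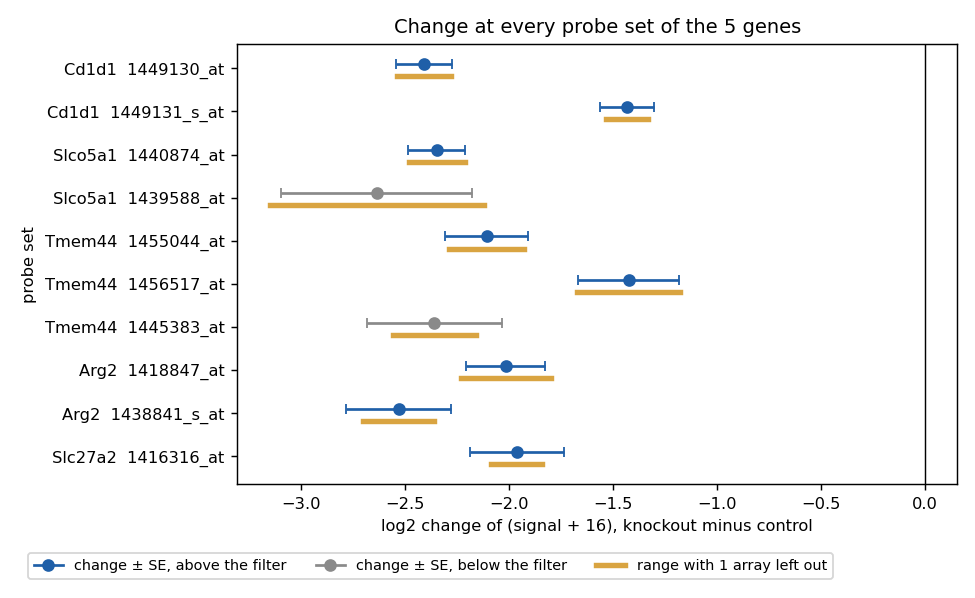
Log2 change of (signal + 16), knockout minus control, at each of the 10 probe sets, as a point with its SE, in blue where the probe set passed the filter and grey where it did not; the bar under each point spans the values with single arrays left out. The points run from -2.64 (Slco5a1 1439588_at) to -1.42 (Tmem44 1456517_at), and 2 probe sets of Cd1d1 stand apart at -2.41 and -1.43.

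Counted by gene, these were the 2nd (Cd1d1), 3rd (Slco5a1), 5th (Tmem44), 9th (Arg2) and 11th (Slc27a2) largest falls. The 12 largest ended with Tfap2a (log2 change -1.96), a transcription factor of the AP-2 family, and the next outside was Pcdhb7 (-1.93), a clustered protocadherin, so no gap marks the edge. The genes outside the 5 with the most similar profiles over the 4 arrays were found by the root mean square difference of log2 values, each gene centred on its own mean. For Slc27a2 they were B3gnt5 (0.07), a glycosyltransferase, the histone gene Macroh2a3 (0.11) and Pcdhb16 (0.15). For Arg2 they were Pcdhb7 (0.08), Pcdhb16 (0.15) and B3gnt5 (0.17). For Tmem44 they were the transcription factor Gata3 (0.07), Pcdhb7 (0.17) and Macroh2a3 (0.21). For Slco5a1 they were B3gnt5 (0.15), Macroh2a3 (0.16) and Tfap2a (0.21). For Cd1d1 they were B3gnt5 (0.18), Macroh2a3 (0.22) and Gata3 (0.22). Among the 5 genes themselves, Cd1d1 and Slco5a1 lay 0.12 apart, Arg2 and Slc27a2 0.12, and Tmem44 was nearest to Arg2 at 0.14. With 4 arrays in 2 groups, such likeness reflects mostly the size of the change.

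Among the partners of Cd1d1, 9 of the 18 tested rose and the other 9 did not pass. Of 23 genes listed for CD1d assembly, lipid loading and lysosomal trafficking, 18 were tested and 0 fell, with a median log2 change of 0.31 against 0.06 over all genes tested, of which 16.3% rose (limma; 11 were higher and 0 lower at an unadjusted p under 0.05). B2m, the light chain of CD1d, read 2640 and 2733 in controls and 4191 and 4768 in knockouts (log2 change 0.73 ± 0.10, SE, n = 2 each; limma adjusted p = 0.000717). Ctss, a lysosomal protease of antigen-presenting cells, went from 1351 and 1269.5 to 4246 and 4706 (1.76 ± 0.10, adjusted p = 9.22e-06). Gm2a (0.79 ± 0.11, adjusted p = 0.000787) and Psap (0.61 ± 0.08, adjusted p = 0.000795), which encode lipid transfer proteins of the lysosome, rose, as did the protease gene Ctsl (0.73 ± 0.09, adjusted p = 0.000502). The groups did not overlap at any of these 5 genes, but all 5 are named as called rises, so nothing is read from that. Among all non-control probe sets 27.1% showed the reverse order, with both knockouts below both controls. The share with both knockouts above both controls is not given here. The chaperones Calr (0.32), Canx (0.27) and Pdia3 (0.29) and the lysosomal membrane protein Lamp1 (0.43) also rose. Mttp, which loads lipid onto CD1d in the endoplasmic reticulum, did not pass (0.52 ± 0.17, adjusted p = 0.0535). Calls were lost without control 1 for Canx (0.24) and Pdia3 (0.26), without knockout 1 for Pdia3 (0.29) and Lamp1 (0.37) and without knockout 2 for Pdia3 (0.30). The other probe set of Pdia3 had the opposite sign (-0.01) and did not pass.

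The paralog Cd1d2 was dim, with signals of 24.4 and 69.3 in controls and 94.6 and 28.1 in knockouts. Its groups overlapped, and it did not pass the filter.

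Markers of cells that carry CD1d or meet it are given beside this. All 11 tested markers of microglia and macrophages of 12 listed rose, against 16.3% of all genes tested. Their median log2 change was 1.68 against 0.06 over all genes. Their summed signal was 6771 to 7765 in controls and 23386 to 25965 in knockouts. Several CD1d partners, Ctss among them, are also abundant in such cells. Of the 10 lymphocyte markers on the array, 8 lay below a signal of 154.6 on every array, among them Cd3d, Cd3e, Cd3g and Cd79a. The single lymphocyte marker that was tested, Zap70, a signalling kinase of T and NK cells, read 1029.8 and 670.1 in controls and 1208 and 1134 in knockouts and did not pass (0.49 ± 0.18; limma adjusted p = 0.0834). The part of these cells in the Cd1d1 value was not tested.

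Around Arg2, 3 arginine transporters and several enzymes of arginine, ornithine and polyamines rose in the knockout, while as many genes did not pass as rose or fell. Of 33 genes listed for arginine, ornithine and polyamine metabolism 22 were tested, and 10 rose, 1 fell and 11 did not pass, with a median log2 change of 0.37 against 0.06 over all genes, of which 16.3% rose and 11.0% fell. The 3 arginine transporters of the cell surface in this list, Slc7a1, Slc7a2 and Slc7a3, all rose, and other carriers of arginine were not listed. Slc7a3 read 113.4 and 199.4 in controls and 298.8 and 367.5 in knockouts (1.06 ± 0.29, SE, n = 2 each; limma adjusted p = 0.0241), Slc7a2 changed by 0.65 ± 0.16 (adjusted p = 0.0166) and Slc7a1 by 0.35 ± 0.09 (adjusted p = 0.0218). Gamt and Gatm, the enzymes that make creatine from arginine, rose by 1.01 ± 0.16 (adjusted p = 0.00207) and 0.44 ± 0.13 (adjusted p = 0.0319). Sat1, which acetylates polyamines for breakdown, went from 1816 and 1844 to 3219 and 3146 (0.79 ± 0.10, adjusted p = 0.000457), and Srm, spermidine synthase, rose by 0.47. Ornithine is handled by Oat, the ornithine aminotransferase (0.47), and by Slc25a15, its mitochondrial carrier (0.57), and both rose. Ddah1, which degrades methylated arginines, rose at its brightest probe set (0.54). Of its other 4 tested probe sets 1 rose, and 1 that did not pass had the opposite sign (-0.42). Aldh18a1, an enzyme of proline synthesis, fell by a log2 change of -0.28.

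The calls of this list rested on single arrays in several places. Without knockout 1, 5 genes rose, and without knockout 2, 6 rose, against 10 with all arrays. Slc7a3, Slc7a2 and Slc7a1 lost their calls without control 1 (0.69, 0.49 and 0.31) and without knockout 1 (1.20, 0.64 and 0.23), and the first pair also without knockout 2 (0.92 and 0.65). Gatm did not pass when control 2 (0.35), knockout 1 (0.43) or knockout 2 (0.45) was dropped, and Slc25a15 lost its call without knockout 1 (0.61) or knockout 2 (0.53). Aldh18a1 did not pass in any fit on 3 arrays (-0.34 to -0.21). Gamt, Sat1, Oat and Srm passed in all 4 of these fits.

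The cytosolic arginase Arg1 was dim, at 31.0 and 50.6 in controls and 17.6 and 69.7 in knockouts, with overlapping groups, and did not pass the filter. Odc1, which turns ornithine into putrescine, read 11195 and 10553 in controls and 9442 and 10372 in knockouts and did not pass (-0.14 ± 0.08; limma adjusted p = 0.236). Nos1, the neuronal nitric oxide synthase, read 892.0 and 1117 against 1316 and 1324 and did not pass either (0.40 ± 0.14, adjusted p = 0.0636).

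Genes of fatty acid uptake, activation and peroxisomal oxidation were called about as often as genes in general. Of 32 listed besides Slc27a2, 23 were tested, and 3 rose, 3 fell and 17 did not pass, so that 6 of 23 were called against 27.3% of all genes, with a median log2 change of 0.16 against 0.06. Within the Slc27 family Slc27a3 fell, from 386.3 and 424.4 in controls to 182.7 and 239.0 in knockouts (-0.90 ± 0.22, SE, n = 2 each; limma adjusted p = 0.0146). Slc27a1 (-0.20 ± 0.14, adjusted p = 0.332) and Slc27a4 (0.01 ± 0.12, adjusted p = 0.978) did not pass. Slc27a5 was below the filter, at 169.7 and 165.9 against 54.2 and 146.4, and Slc27a6 is not named on a probe set of its own. The peroxisomal genes Hacl1 (0.83 ± 0.18, adjusted p = 0.00775), a lyase of fatty acid alpha-oxidation, and Abcd2 (0.82 ± 0.16, adjusted p = 0.00554), an importer of very long chain acyl-CoA, rose. The acyl-CoA synthetase Acsl5 rose (0.45) and Acsl6, its relative in brain, fell (-0.44). Fabp5, a fatty acid binding protein, fell by a small step (-0.18).

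Each of these 6 calls was lost in at least 1 fit on 3 arrays. Without knockout 2, 0 of this list rose (limma), and Hacl1 (0.82), Abcd2 (0.68) and Acsl5 (0.40) all lost their calls. Without knockout 1, 0 fell, and Slc27a3 (-0.72), Acsl6 (-0.53) and Fabp5 (-0.14) lost theirs, as did Hacl1 (0.84) and Acsl5 (0.50). Acsl5 (0.31), Acsl6 (-0.37) and Fabp5 (-0.22) did not pass without control 1, nor Fabp5 without control 2 (-0.14), nor Acsl6 without knockout 2 (-0.35).

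No other tested organic anion transporter of the Slco family changed past the threshold. Of 14 listed, 6 were tested, and 0 rose and 0 fell (limma, with 1 higher and 0 lower at an unadjusted p under 0.05). Over all genes 27.3% were called, so with 6 tested genes a count of 0 says little about the family. Their median log2 change was 0.24 against 0.06 over all genes. Slco1c1, the thyroxine carrier of brain endothelium, read 1414 and 1401 in controls and 1644 and 1746.5 in knockouts (0.26 ± 0.11, SE, n = 2 each; limma adjusted p = 0.116). The others were Slco1a4 (0.21 ± 0.25), Slco2a1 (0.34 ± 0.24), Slco2b1 (0.26 ± 0.20), Slco3a1 (-0.03 ± 0.13) and Slco4a1 (-0.23 ± 0.28). The 8 that did not pass the filter lay below a signal of 154.6 on every array: Slco1a1, Slco1a5, Slco1a6, Slco1b2, Slco4c1, Slco6b1, Slco6c1 and Slco6d1.

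**Figure D3:**
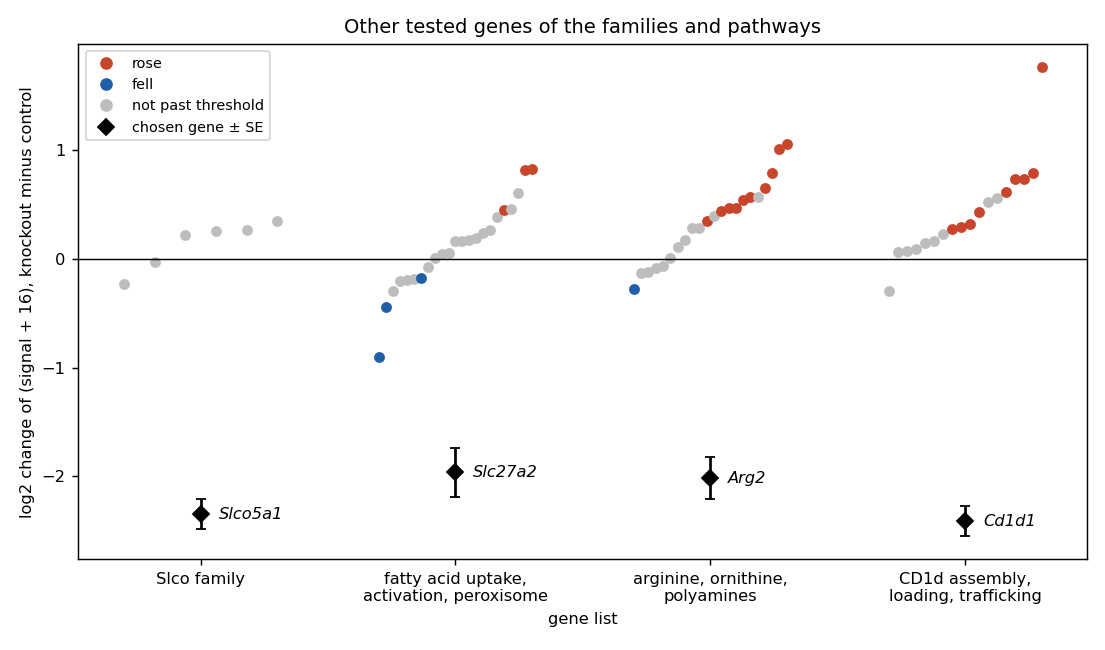
Log2 change of (signal + 16), knockout minus control, of every tested gene in the 4 lists, coloured by whether it rose, fell or did not pass the threshold, with the chosen gene of each list as a black diamond with its SE. The 4 chosen genes lie at -2.41 to -1.96, as their choice for large falls fixed. Of the other genes the lowest is Slc27a3 (-0.90) and the highest Ctss (1.76).

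The 5 genes lie on 5 different chromosomes, and the 2 protein-coding genes on either side of each were read from the RefSeq order of GRCm38.p6. Of these 20 neighbours 16 were tested, and 3 fell and 1 rose, a share of calls near the 27.3% of all genes. Next to Cd1d1 were Dclk2, a doublecortin-like kinase, at 2058.5 and 2129 in controls and 1505 and 1087 in knockouts (-0.70 ± 0.15, SE, n = 2 each; limma adjusted p = 0.0078), and, 1 gene further, Mab21l2, a developmental regulator, at 1294 and 1380 against 634.8 and 592.6 (-1.10 ± 0.13, adjusted p = 0.000369). On its other side Kirrel did not pass (-0.41 ± 0.16, adjusted p = 0.094), and Fcrls, an Fc receptor-like gene of microglia, rose from 411.3 and 439.8 to 1707 and 1450 (1.85 ± 0.14, adjusted p = 4.79e-05).

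The other loci held 1 call. Vti1b, which adjoins Arg2, fell by a log2 change of -0.27 ± 0.08 (limma adjusted p = 0.0312), a value that did not pass in any fit on 3 arrays (-0.31 to -0.24). Pigh, on the other side of Arg2, did not pass (0.13 ± 0.14, adjusted p = 0.545), nor did Plekhh1 (-0.44) and Rdh11 (-0.08). The 4 neighbours of Tmem44 changed by -0.14 (Lsg1) to 0.33 (Gp5), and none passed (adjusted p from 0.416 to 0.982). Beside Slco5a1, Sulf1 (0.24 ± 0.11, adjusted p = 0.131) and Ncoa2 (0.05 ± 0.09, adjusted p = 0.727) did not pass, and Prdm14 and A830018L16Rik were below the filter. Dtwd1 (0.11) and Gabpb1 (-0.18) near Slc27a2 did not pass, and Atp8b4 and Hdc were below the filter. Dclk2 lost its call without knockout 2 (-0.47).

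**Figure D4:**
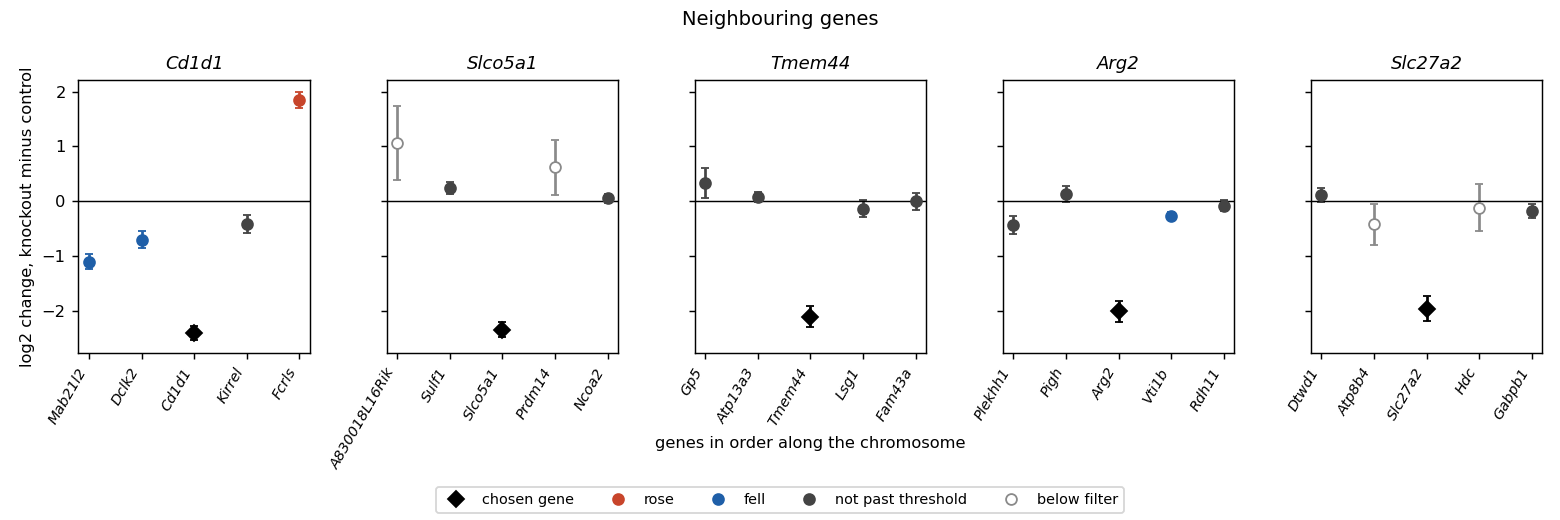
Log2 change, knockout minus control, with SE, of each chosen gene (black diamond) and the 2 protein-coding genes on either side, in order along the chromosome and without scale for distance; open circles are genes below the filter. Mab21l2 (-1.10) and Dclk2 (-0.70) beside Cd1d1 are the lowest neighbours and Fcrls (1.85) the highest.

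Markers of other cells of the brain moved in both directions. Over all genes tested 16.3% rose and 11.0% fell, with a median log2 change of 0.06, and the small counts below are to be read beside these shares. The microglial markers Mpeg1 (2.35), C1qa (2.14) and C1qb (2.01) changed as much as the 5 genes, with the opposite sign. Of 9 neuronal markers 7 fell and 1 rose, with a median log2 change of -0.41, and the largest fall among them was that of Ina (-1.02), an intermediate filament of neurons. Their summed signal was 137475 to 143526 in controls and 103158 to 105793 in knockouts. Of 8 progenitor markers 3 rose and 0 fell (limma; 4 were higher and 0 lower at an unadjusted p under 0.05), and 1 rose without control 2 or without knockout 1. Among markers of peripheral sensory neurons 3 of 8 were tested, and Isl1 (-0.71) and Pou4f1 (-0.93), which brain neurons express too, fell. Of 9 endothelial markers 4 rose, but 0 did without control 1 or without knockout 1 and 1 without knockout 2 (limma). Of 9 mesenchymal markers 4 rose, and 2 did without knockout 2. Of the 7 tested markers of choroid plexus 3 rose and 1 fell, with 2 rises when either control was left out and 1 when either knockout was. Oligodendrocyte precursor markers gave 1 rise and 1 fall among 6, and neither passed without knockout 1 or without knockout 2. Of the list for epithelium and liver, tissues in which Slc27a2 is well known, 0 of 5 tested were called with all arrays (limma). At an unadjusted limma p under 0.05, 2 were higher and 0 lower, and calls in this list differed in some fits on 3 arrays. Alb, Afp and Apoa1 lay below a signal of 154.6 on every array. Erythroid markers gave 0 calls among 5 (1 was higher at an unadjusted p under 0.05). The part of any of these cell types in the signals of the 5 genes was not tested.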

How the data were processed

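The deposited values are linear MAS5 intensities, 1 per probe set and array, which the authors computed with MAS5 (5.0 is the version in the submitters' processing notes). The 4 columns had equal means after trimming 2% at each end. The labels name no batch, and a genome build was not given in the sources used here. Gene symbols came from the platform annotation, and probe sets with several symbols named no gene. The 64 control probe sets of 45101 were left out.

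Log2 of (intensity + 16) was fitted with limma 3.58.1 in R 4.3.3 (lmFit, eBayes with a variance trend, 2 residual and 8.33 prior degrees of freedom), control against knockout, over the 27022 probe sets with a mean log2 value of at least 7.41, the 40th percentile. P-values were adjusted by Benjamini-Hochberg, with 0.05 as the threshold. Values of probe sets below the filter came from the same fit without it and carry no p-value. The script was tested on simulated data. The genes, lists and tests were chosen with earlier results of these data known. All probe sets of the 5 genes are reported. By rule, the other genes named are the paralogs, in each list up to 4 called genes with the largest change in each direction (all where 5 or fewer were called), the last gene inside and the first outside the 12 largest falls, the 3 nearest profiles per gene, and the 2 neighbours on either side. Other genes were named after their values were seen, for their role (Slc7a1, Slc25a15, Gatm, Srm, Oat, Ddah1, Odc1, Nos1, Psap, Calr, Canx, Pdia3, Lamp1, Mttp and cell markers). Smox and Cd74 were named because their calls changed with the probe set rule. Alternatives were another added constant (1 or 64), filter, centring, threshold, probe set rule, variance model and a replicate block, and each array left out.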

Additional observations from a re-analysis of the deposited data

How the results depend on the processing

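The 5 genes stayed lower in the knockout under every alternative that gave a value. Every alternative used the arrays on which the 5 were chosen, so this follows largely from the choice. The values show how far the size depends on the processing, not whether the genes fell. The log2 change ranged from -2.54 to -1.92 for Cd1d1, -2.48 to -2.21 for Slco5a1, -2.29 to -1.77 for Tmem44, -2.27 to -1.80 for Arg2 and -2.09 to -1.66 for Slc27a2. Averaging the probe sets of a gene gave -1.92 for Cd1d1, -1.77 for Tmem44 and -2.27 for Arg2, and an added constant of 64 gave -1.66 for Slc27a2. Tmem44, Arg2 and Slc27a2 lay below the 60th percentile filter and gave no value there. Without a variance trend 1471 probe sets rose and 1643 fell, against 3152 and 3125, and in the lists 1 fatty acid gene fell, 4 arginine genes rose and 0 fell (limma, as throughout), and 1 neighbour fell. Without the filter 1 Slco gene rose (Slco1a5), and 0 fatty acid and 0 arginine genes fell. Averaging probe sets, 1 Slco gene rose (Slco2b1). Under that rule Ddah1, Pdia3 and Aldh18a1 lost their calls. Nos1, Mttp and Cd74 were then called as rises, and Smox and the neighbour Plekhh1 as falls. Centring on the median left 0 arginine genes that fell, and a threshold of 0.1 gave 5 neighbours that fell. With single arrays left out, the lone array of a group being taken to vary like the other pair, 1458 to 2611 probe sets rose and 1674 to 2811 fell. In those fits 0 to 3 fatty acid genes rose and 0 to 2 fell, 5 to 10 arginine genes rose and 0 fell, and 1 to 2 neighbours fell. No direction of a called value reversed. Where a count moved, the cause was not tested. The replicate numbers are not said to pair arrays, and deviations of same-numbered arrays correlated with r = 0.0028. With them as a block, 3414 probe sets rose and 3430 fell, and 11 arginine genes rose. Dim knockout signals limit the size given for Slc27a2 and for the dim probe sets of Slco5a1, Tmem44 and Arg2.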
